A study of Mus musculus with 6 samples.

Results

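Hedgehog signalling is one of the pathways that pattern the embryonic forebrain, and 10 of its genes were followed here in the cortex of mouse embryos that had lost the histone deacetylases HDAC1 and HDAC2. They were chosen by symbol, with the highest-count row standing for a symbol that has several. They are the transcription factors Gli1, Gli2 and Gli3, the receptor Ptch1, the transducer Smo, the Gli inhibitor Sufu, the coreceptors Cdon, Boc and Gas1, and the decoy receptor Hhip. All 10 have a row among the 12041 gene symbols of the table, and 8 of them passed the filter on low values. RNA came from the cortex at embryonic day 12.5, in the strain C57BL/6, from 3 conditional double knockouts of Hdac1 and Hdac2 (cKO), named HM-5, HM-13, HM-16 in the table, and 3 wild types (WT), named HC-1, HC-8, HC-10. The sources used here give neither the Cre driver nor the deleted exons, nor whether embryos were littermates or pooled. The letters HM and HC, which are not the sample titles, were read as mutant and control. Nothing states that the 3 libraries of a group are separate embryos, and part of the spread behind the p-values may be technical. Xist, the transcript of the inactive X chromosome in females, was 0.0148, 0.0778 and 104.6 FPKM in HM-5, HM-13 and HM-16, against 0.0943, 155 and 0.0524 FPKM in HC-1, HC-8 and HC-10. It was thus high in 1 library of each group, so that the libraries of a group are not all repeats of a single embryo.

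In the absence of ligand, PTCH1 keeps SMO inactive, and GLI3 and GLI2 are processed into repressors while SUFU holds full-length Gli proteins back. When Sonic hedgehog binds PTCH1, with CDON, BOC and GAS1 as helping coreceptors, SMO enters the primary cilium and Gli activators form. Gli1, Ptch1 and Hhip are themselves transcribed in response, so their RNA is widely used as a readout of the pathway. In the telencephalon the ligand acts mainly on the ventral side, and Gli3 repressor is needed for the dorsal side, from which the cortex grows.

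The 3 Gli genes are paralogs, and their zinc finger coding regions are alike, which matters for how far reads can tell them apart. The lines below give 120 coding bases of each around the longest stretch that Gli2 and Gli3 share, 5′ to 3′, from the GENCODE M21 transcripts on GRCm38. They are coding positions 1481 to 1600 of Gli3, 1292 to 1411 of Gli2 and 755 to 874 of Gli1, counted from the A of the start codon. Capitals mark bases that differ from Gli3.
Gli3: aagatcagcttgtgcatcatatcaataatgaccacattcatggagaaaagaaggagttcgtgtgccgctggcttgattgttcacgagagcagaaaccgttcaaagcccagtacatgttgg
Gli2: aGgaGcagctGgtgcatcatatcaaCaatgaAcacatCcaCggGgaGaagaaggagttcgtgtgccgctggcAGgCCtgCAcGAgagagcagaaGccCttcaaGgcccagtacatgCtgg
Gli1: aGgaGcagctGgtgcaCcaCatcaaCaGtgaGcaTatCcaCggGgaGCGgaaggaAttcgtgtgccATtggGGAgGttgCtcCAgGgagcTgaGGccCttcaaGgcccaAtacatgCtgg
In this window Gli2 differs from Gli3 at 21 bases (82.5% identity) and Gli1 differs at 33 (72.5%). The longest exact run shared by the coding sequences was 25 bases for Gli2 and Gli3, 23 for Gli1 and Gli2, and 14 for Gli1 and Gli3. The coreceptor genes Cdon and Boc share a run of 31 bases. The sources used here do not give the read length.

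None of the 8 tested genes passed the test between cKO and WT. With limma on log2(FPKM + 1), where FPKM is fragments scaled to transcript length and depth, 0 of 8 had a Benjamini-Hochberg adjusted p under 0.05, against 18% of all 9359 genes tested (9.62% rose and 8.39% fell). With limma's voom on the recovered read counts the number was also 0, against 20.4% of all genes. An unadjusted p under 0.05 was found for 1 of the 8 with limma (34.3% of all genes) and for 2 with voom (35.3%). The median log2 fold change of the 8 was -0.13, against -0.01 for all genes tested, and 6 of the 8 lay below 0 (51.2% of all genes). Without HM-13, the cKO library richest in ribosomal RNA, the median of the 8 was -0.042. The smallest adjusted p of any of these genes under any of the 15 alternative settings was 0.0513, for Cdon without HC-8.

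**Figure D1:**
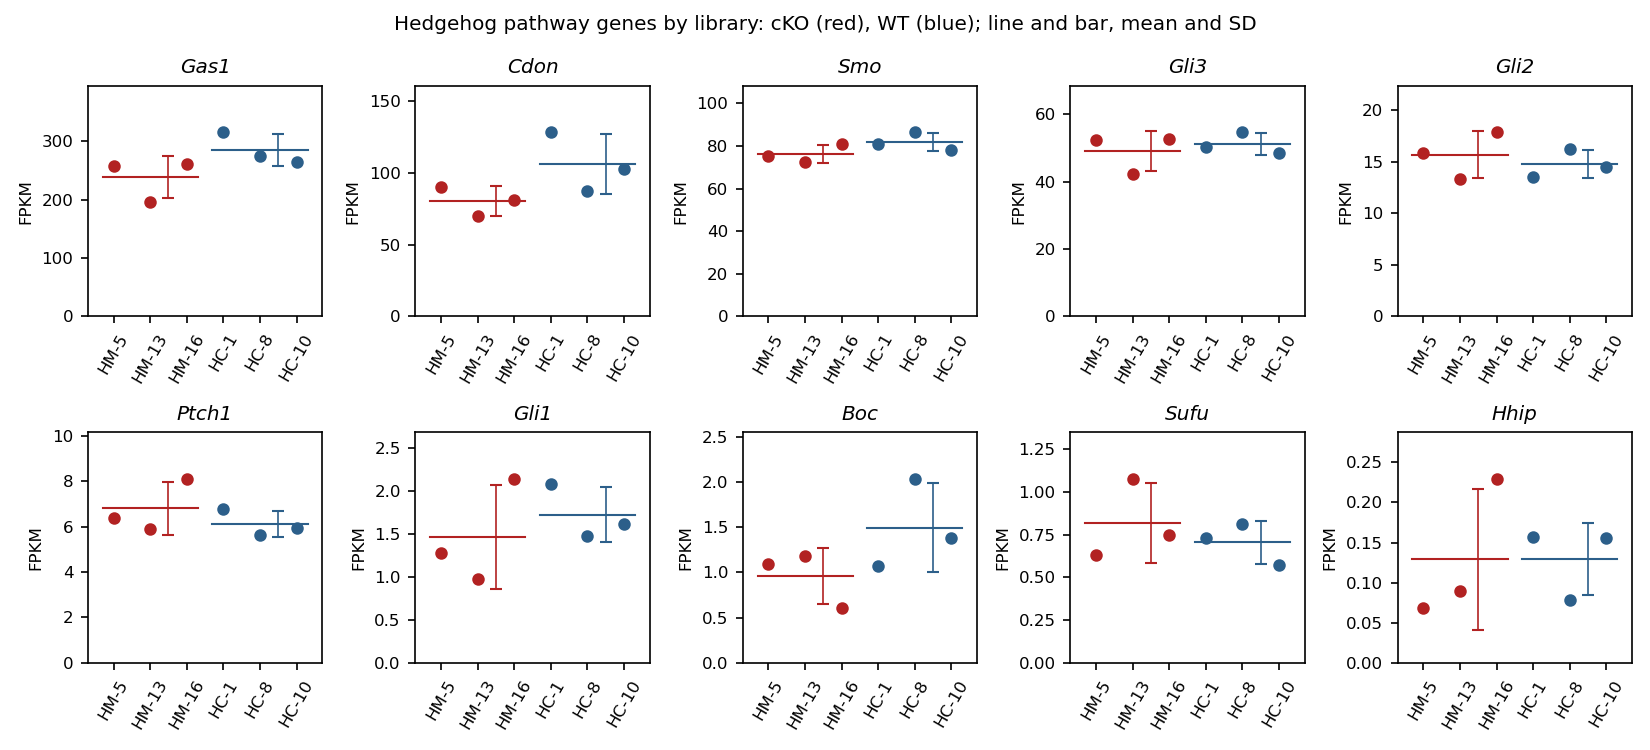
FPKM of the 10 Hedgehog genes in each library, 1 panel a gene, with cKO libraries in red on the left and WT libraries in blue on the right of each panel; lines and bars give the group mean and SD (n = 3 each). Gas1 is the 1 tested gene whose groups do not overlap.

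Both targeted genes were lower in every library labelled cKO. The transcript of Hdac1 was at 25.6% of its WT mean in the cKO libraries (log2 fold change -1.96, limma adjusted p = 0.000307) and that of Hdac2 at 23.6% (-2.03, adjusted p = 0.00441). Markers of the dorsal telencephalon were present in every library, with Emx1, a cortical homeobox gene, at 167 ± 17.7 FPKM in cKO and 186 ± 17.9 FPKM in WT (SD, n = 3 each). Recovered reads ran from 9712556 to 11922665 per library. In the cKO library HM-13, 29.7% of reads were ribosomal RNA (Rn45s), against 0.506% to 2.48% in the other 5. HM-13 was also the lowest of the 6 libraries for 6 of the 8 tested Hedgehog genes, against 16.2% of all genes tested. The part of that library's ribosomal RNA in these lower values was not tested.

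The 10 genes spanned a wide range of levels, from 262 FPKM for Gas1 to 0.130 FPKM for Hhip as means over the 6 libraries. Below Gas1 came Cdon (93.4 FPKM), Smo (79.1), Gli3 (50.2), Gli2 (15.2), Ptch1 (6.46), Gli1 (1.6), Boc (1.23) and Sufu (0.762). Neighbours in this order whose libraries overlapped were Cdon and Smo, Gli1 and Boc, and Boc and Sufu. The other neighbours did not overlap in any library. FPKM are scaled to length, but the level of a row also depends on how reads common to several transcripts of a gene were counted, and the sources used here do not say how. Symbols with 1 curated RefSeq mRNA had a median of 10.4 FPKM (6131 symbols), and those with 2 or more had a median of 1.90 FPKM (3409 symbols). Ptch1 and Sufu have 2 curated mRNAs each and the other 8 genes have 1, so the levels of Ptch1 and Sufu are not safely set against the rest. The length behind the Boc row, inferred from its counts and FPKM, was 2.655 kb, shorter than the 3330 coding bases of Boc in GENCODE M21. The level of Boc is thus not safely set against the rest either.

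Among the transcription factors, Gli3 was the most abundant. Gli3 (ENSMUST00000110510; chromosome 13, 15463235 to 15730026, GRCm38, plus strand) encodes the main Gli repressor of the dorsal forebrain. It had 52.3, 42.4 and 52.6 FPKM in HM-5, HM-13 and HM-16 (cKO), against 50.3, 54.8 and 48.5 FPKM in HC-1, HC-8 and HC-10 (WT). The groups overlapped, and HM-13 lay below the other 5 libraries. This gave a log2 fold change of -0.06 (SE 0.10, 95% interval -0.29 to 0.16, limma adjusted p = 0.691). Without HM-13 it was 0.04 (adjusted p = 0.745).

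Gli2 (ENSMUST00000062483; chromosome 1, 118834132 to 119053619, minus strand), the main activator downstream of the ligand, had 15.9, 13.3 and 17.9 FPKM in HM-5, HM-13 and HM-16, against 13.6, 16.3 and 14.5 FPKM in HC-1, HC-8 and HC-10. The highest value came from a cKO library and so did the lowest. For Gli2 the log2 fold change was 0.08 (SE 0.12, 95% interval -0.21 to 0.36, limma adjusted p = 0.696). Its sign was not stable, at 0.18 without HM-13, -0.02 without HM-16 and -0.01 with scaling to total reads.

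Gli3 stood above Gli2 in every library. The ratio was 3.30, 3.18 and 2.94 in HM-5, HM-13 and HM-16, against 3.70, 3.36 and 3.35 in HC-1, HC-8 and HC-10. The means were 3.14 ± 0.183 in cKO and 3.47 ± 0.201 in WT (SD, n = 3 each), and the groups did not overlap. An exact two-sided permutation test gave p = 0.1, the smallest p that 3 against 3 libraries allow, and 0.4 after adjustment over the 5 ratios computed. The other 4 ratios (Gli3 to Gli1, Gli2 to Gli1, Smo to Ptch1 and Gas1 to Cdon) overlapped between groups.

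Gli1 (ENSMUST00000026474; chromosome 10, 127329882 to 127341974, minus strand), an activator that is itself a target of the pathway, was low in every library. It had 1.28, 0.983 and 2.15 FPKM in HM-5, HM-13 and HM-16, against 2.09, 1.48 and 1.61 FPKM in HC-1, HC-8 and HC-10. These values rest on 53, 31 and 83 reads in cKO, and on 86, 69 and 63 reads in WT. The cKO library HM-16 held the highest value and HM-13 the lowest. The log2 fold change of -0.16 had a 95% interval from -0.60 to 0.27 on the log2(FPKM + 1) scale (SE 0.19, limma adjusted p = 0.581), and it was -0.02 without HM-13.

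Ptch1 (ENSMUST00000192155; chromosome 13, 63508328 to 63573598, minus strand), the ligand receptor and another target, also overlapped between groups. It had 6.40, 5.91 and 8.13 FPKM in HM-5, HM-13 and HM-16, against 6.77, 5.66 and 5.92 FPKM in HC-1, HC-8 and HC-10. For Ptch1 it was 0.13 on the log2 scale (SE 0.13, 95% interval -0.18 to 0.44, limma adjusted p = 0.545). It was 0.0093 without HM-16 and 0.21 without HM-13. A second Ptch1 row (ENSMUST00000021921) had 3.49, 2.35 and 3.77 FPKM in the cKO libraries, against 2.27, 2.97 and 2.53 FPKM in the WT libraries, in the same library order. Summed over both rows the adjusted p was 0.399. In the authors' deposited table the FDR was 0.576 for the first row and 0.355 for the second.

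Hhip (ENSMUST00000079038; chromosome 8, 79965851 to 80058006, minus strand), a secreted and membrane-bound decoy that is induced by the pathway, was near the floor and was not tested. It had 7, 7 and 22 reads in HM-5, HM-13 and HM-16, and 16, 9 and 15 reads in HC-1, HC-8 and HC-10. In FPKM these are 0.0682, 0.0895 and 0.230 in cKO, against 0.157, 0.0778 and 0.155 in WT. The totals were 36 reads in cKO and 40 in WT, and the groups overlapped.

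**Figure D2:**
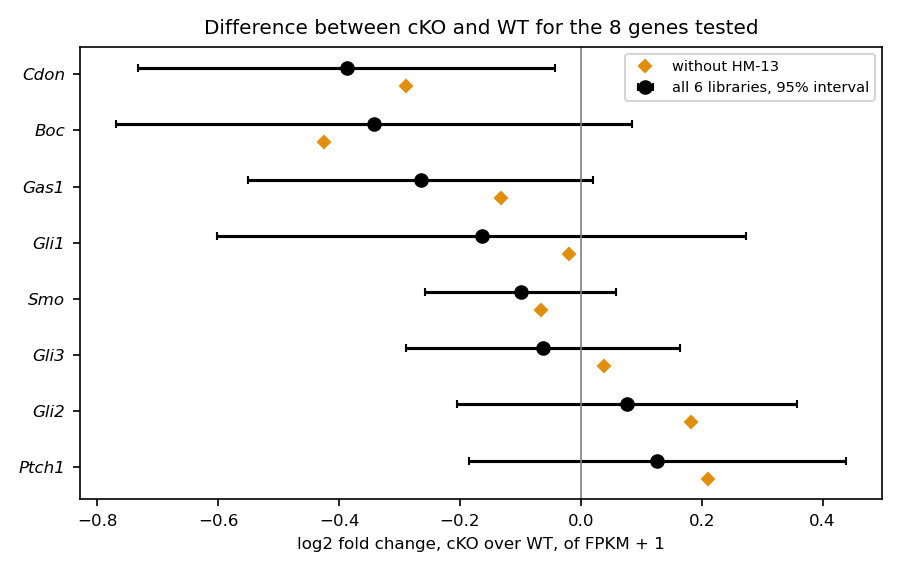
Log2 fold change of cKO over WT for the 8 tested genes (x axis, on FPKM + 1), with all 6 libraries (black, 95% interval) and without the cKO library HM-13 (orange). The interval of Cdon, at -0.73 to -0.04, leaves out 0 before adjustment, and without HM-13 the value of Gas1 is -0.13 in place of -0.26.

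Smo, the transducer on which the pathway turns, varied least. Smo (ENSMUST00000001812; chromosome 6, 29735503 to 29761365, plus strand) had 75.3, 72.7 and 81.0 FPKM in HM-5, HM-13 and HM-16, against 80.8, 86.5 and 78.1 FPKM in HC-1, HC-8 and HC-10. The coefficient of variation over the 6 libraries was 6.17%. Smo had a log2 fold change of -0.10 (SE 0.07, limma adjusted p = 0.340). Its 95% interval, -0.26 to 0.06, corresponds to cKO levels of 0.837 to 1.04 times WT on the FPKM + 1 scale.

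Sufu (ENSMUST00000118440; chromosome 19, 46396896 to 46488804, plus strand), the inhibitor that binds Gli proteins, reached 1 FPKM in 1 library and was not tested. It had 0.633, 1.08 and 0.746 FPKM in HM-5, HM-13 and HM-16, against 0.731, 0.814 and 0.571 FPKM in HC-1, HC-8 and HC-10, over 17 to 29 reads a library. With no filter on low values its log2 fold change was 0.09 (limma adjusted p = 0.676).

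The coreceptors held the 3 smallest p-values of the family, with lower mean levels in cKO for each. Cdon (ENSMUST00000119129; chromosome 9, 35421128 to 35507652, plus strand), an immunoglobulin-superfamily protein that binds the ligand, had 90.3, 69.8 and 81.4 FPKM in HM-5, HM-13 and HM-16, against 129, 87.6 and 103 FPKM in HC-1, HC-8 and HC-10. The cKO library HM-5 lay above the WT library HC-8, so the groups overlapped, and HC-1 stood highest. The cKO mean was 75.7% of the WT mean. The log2 fold change was -0.39 (SE 0.15, 95% interval -0.73 to -0.04, unadjusted p = 0.0324, limma adjusted p = 0.111). With 1 library left out it lay between -0.52 (HC-8 left out, adjusted p = 0.0513) and -0.24 (HC-1 left out, adjusted p = 0.240).

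The tests do not give the same call for Cdon. In the authors' deposited table its FDR was 0.0123, at a log2 fold change of -0.38. Of the 9870 rows with an FDR in it, 19.3% were under 0.05, and 8.75% were under 0.05 and lower in cKO. Voom on the recovered reads gave an adjusted p of 0.0848 at -0.39. The authors' FDR and the limma fit thus differ in the p and hardly in the size of the difference. A second, much weaker Cdon row had 6 to 24 reads a library, and the authors' table gives no FDR for it.

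Gas1 (ENSMUST00000065086; chromosome 13, 60174405 to 60177365, minus strand), a membrane-anchored coreceptor with a single-exon transcript, was the most abundant of the 10. It had 257, 196 and 261 FPKM in HM-5, HM-13 and HM-16, against 316, 274 and 264 FPKM in HC-1, HC-8 and HC-10. All cKO libraries lay below all WT libraries, which 39.1% of all genes tested showed in either direction and 19.6% in this direction. HM-16 and HC-10 differed by little. The log2 fold change was -0.26 (SE 0.12, 95% interval -0.55 to 0.02, limma adjusted p = 0.171), and -0.13 without HM-13 (adjusted p = 0.332). The authors' deposited table gives an FDR of 0.0925 for Gas1.

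Boc (ENSMUST00000023370; chromosome 16, 44485049 to 44558897, minus strand), the close relative of Cdon, was low. It had 1.10, 1.18 and 0.607 FPKM in HM-5, HM-13 and HM-16, against 1.07, 2.04 and 1.38 FPKM in HC-1, HC-8 and HC-10. HC-1 was below HM-5 and HM-13, so the groups overlapped. The values rest on 17 to 69 reads a library, 77 in all in cKO and 140 in WT. The log2 fold change was -0.34 with a pseudocount of 1 (SE 0.18, limma adjusted p = 0.233) and -0.59 with a pseudocount of 0.1 (adjusted p = 0.239), and voom gave -0.66 (adjusted p = 0.202). With 1 library left out it lay between -0.47 (HC-1) and -0.19 (HC-8), and it was -0.20 without HM-16.

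Levels of ventral and meningeal markers differed between libraries within each group. The summed FPKM of 9 ventral telencephalon genes was 36.8, 58.1 and 69.5 in HM-5, HM-13 and HM-16, against 32.1, 109.7 and 85.9 in HC-1, HC-8 and HC-10. In each group the library with the lowest ventral sum had the highest Cdon (HM-5 in cKO, HC-1 in WT). HC-8 had the highest ventral sum, the lowest Cdon of the WT libraries and the highest Boc of all 6. The cKO libraries did not show this order, since HM-16, with their highest ventral sum, had the lowest Boc of all 6, and HM-13 had the lowest Cdon. Dlx2, a homeobox gene of ventral progenitors, was 1.43, 11.8 and 13.1 FPKM in the cKO libraries, against 3.74, 38.3 and 26.5 FPKM in the WT libraries (limma adjusted p = 0.402). With scaling to total reads Dlx2 passed, at a log2 fold change of -1.29 (SE 0.25, limma adjusted p = 3.9e-05), where the SE was 0.91 in the fit reported. Under that scaling the SEs of Smo and Ttr were 0.23 and 0.24, against 0.07 and 1.71 in the fit reported. Its p-values thus hardly follow the spread of each gene, which limits the calls gained or lost under it. The summed FPKM of 12 meningeal and mesenchymal genes was 392, 269 and 432 in HM-5, HM-13 and HM-16, against 494, 242 and 268 in HC-1, HC-8 and HC-10. HC-1 was thus highest for meningeal markers, for Cdon and for Gas1. Among the cKO libraries Gas1 ran in the order of the meningeal sum, and Cdon did not. HM-16, with a meningeal sum of 432, lay below HC-8, with the lowest sum of all 6 (242), for both Cdon and Gas1. The part of tissue content in the coreceptor values was not tested. In bulk tissue, fewer cells of a type and less RNA per cell cannot be told apart.

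**Figure D3:**
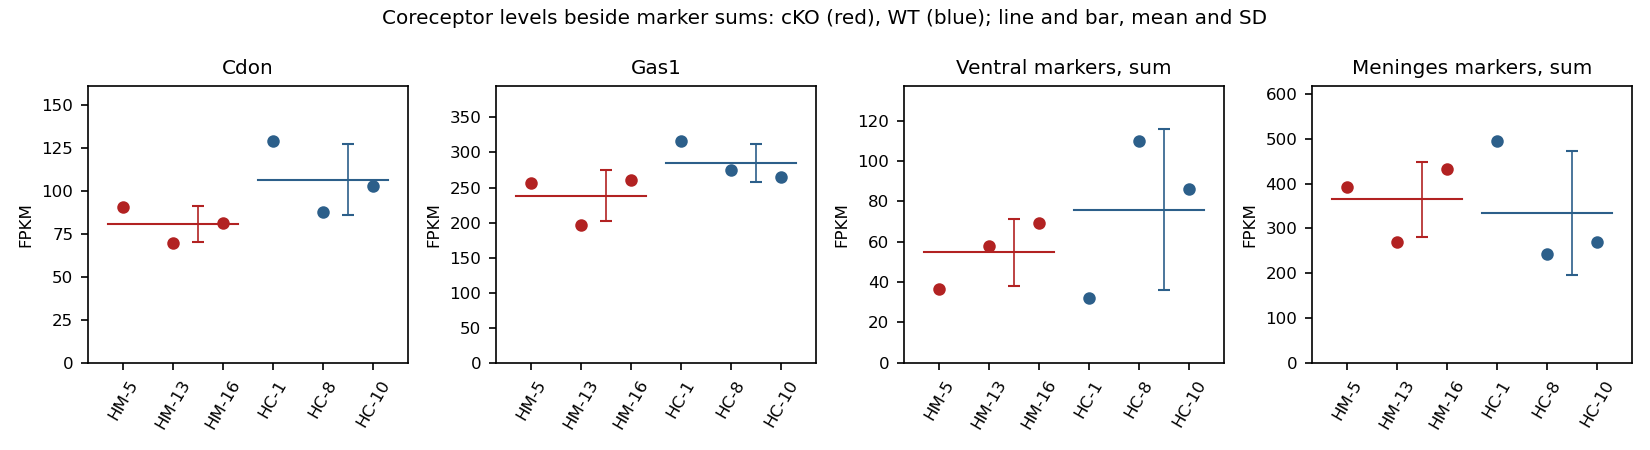
FPKM of Cdon and Gas1 beside the summed FPKM of 9 ventral and 12 meningeal marker genes in each library (cKO in red on the left, WT in blue; lines and bars, mean and SD, n = 3 each). The libraries lowest in ventral markers, HM-5 (36.8) and HC-1 (32.1), are the highest in Cdon within their groups.

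Marker lists of other tissues gave few calls apart from the microglial list. Their counts stand against 18% of all genes called by limma and 34.3% with an unadjusted p under 0.05. Of 6 ventral genes tested, limma and voom each called 0, with 0 at an unadjusted p under 0.05 and a median log2 fold change of -0.76. With scaling to total reads 5 of these 6 were called, as were 1 gene each of the hem and choroid plexus list and of the diencephalic list. Of 12 meningeal genes limma and voom called 0, with 0 at an unadjusted p under 0.05, and the list's most abundant gene, the collagen gene Col3a1, was 167 ± 40.1 FPKM in cKO and 147 ± 65.0 FPKM in WT (SD, n = 3 each). For 12 genes of the cortical hem and choroid plexus limma and voom called 0 (unadjusted p under 0.05 for 0), and the sum over all 13 with a row ran from 241 to 303 FPKM in cKO and from 61.7 to 490 FPKM in WT. Ttr, the choroid plexus transthyretin gene, was 53.3 ± 22.8 FPKM in cKO and 87.9 ± 77.2 FPKM in WT (SD, n = 3 each; limma adjusted p = 0.742). The log2 fold change of Ttr in this fit was 0.92 (SE 1.71), the opposite direction to its means, with HC-10 at 0.0769 FPKM. With scaling to total reads the sign was the same, and Ttr passed at 0.84 (limma adjusted p = 0.0123). For 4 endothelial genes tested the sums over all 6 with a row were 102 to 131 FPKM in cKO and 73.8 to 134 FPKM in WT, and limma and voom called 0, with 0 at an unadjusted p under 0.05. For 3 diencephalic and midbrain genes they called 0 as well, with 2 at an unadjusted p under 0.05. All 3 lay below 0, with a median log2 fold change of -0.52. The sums over all 4 with a row were 13.7 to 18.7 FPKM in cKO, below the 22.8 to 28.4 FPKM in WT. With 1 library left out, Barhl2 fell without HM-13, Lhx9 without HC-1 (limma adjusted p = 0.0455) and Lhx5 without HC-10 (0.0103). Of 7 microglial genes, Tyrobp and C1qb rose (adjusted p = 0.0150 and 0.0170), and the sums of 76.8 to 88.1 FPKM in cKO lay above those of 55.4 to 70.6 FPKM in WT. That is 28.6% called against 18%, with 4 of the 7 at an unadjusted p under 0.05. Of the 7, 0 lay below 0, and their median log2 fold change was 0.35. C1qb lost its call without HM-5, HM-16 or HC-10 (adjusted p = 0.0669, 0.0703 and 0.0558), and Tyrobp without HM-16 (0.0625). Of 11 dorsal telencephalon genes tested, 2 rose and 0 fell (18.2% against 18%), while 7 lay below 0 and the median log2 fold change was -0.18. The dorsal transcription factor gene Emx2 rose (limma adjusted p = 0.0360), and lost its call in all leave-one-out fits but that without HM-13 (highest adjusted p = 0.129). With scaling to total reads none of Tyrobp, C1qb and Emx2 passed (adjusted p = 0.190, 0.498 and 0.211). No marker gene with a row was at 0 in all libraries.

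Genes listed as targets of Hedgehog signalling from textbook knowledge gave several calls. Of 17 tested, 4 fell and 1 rose, or 29.4% against 18% of all genes, and their median log2 fold change was -0.30. Several of these genes answer to other pathways as well. With HM-5 or HM-16 left out, 2 passed in place of 5, and with HM-13 left out 5 passed, Hes1 in place of Sfrp1.

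Fgf15, a secreted growth factor of the forebrain midline and a known Hedgehog-responsive gene, was 2.5, 3.73 and 3.52 FPKM in HM-5, HM-13 and HM-16, against 11.7, 27.4 and 11.8 FPKM in HC-1, HC-8 and HC-10. Every cKO library lay far below every WT library, and HC-8, the library with the highest ventral sum (109.7 FPKM), stood highest. The other libraries did not show this order, since HC-1 and HC-10 had ventral sums of 32.1 and 85.9 FPKM at near-equal Fgf15. Every cKO library had a higher ventral sum than HC-1 and less Fgf15. The diencephalic and midbrain sum was 14.2, 18.7 and 13.7 FPKM in HM-5, HM-13 and HM-16, against 22.8, 28.4 and 25.3 FPKM in HC-1, HC-8 and HC-10. That sum was thus lower in every cKO library than in every WT library and highest in HC-8, as Fgf15 was. The part of tissue content in the Fgf15 values was not tested. For Fgf15 the log2 fold change was -1.98 (SE 0.31, limma adjusted p = 0.00716), and it stayed past the threshold in each leave-one-out fit (highest adjusted p = 0.0388). Ccnd1 and Ccnd2, the D-type cyclins that drive cells out of G1, also fell. Ccnd1 averaged 71.6 ± 10.7 FPKM in cKO and 122 ± 14.0 FPKM in WT, or 58.7% of WT (adjusted p = 0.00756, highest leave-one-out adjusted p = 0.0407). Ccnd2 averaged 347 ± 27.6 FPKM in cKO and 546 ± 88.6 FPKM in WT (SD, n = 3 each; limma adjusted p = 0.0146), and its call was lost without HM-5 (0.0661) or HM-16 (0.0559).

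Sfrp1, a secreted Wnt modulator, was named after its value was seen. It was 270, 247 and 253 FPKM in HM-5, HM-13 and HM-16, against 319, 308 and 372 FPKM in HC-1, HC-8 and HC-10 (77.1% of WT, limma adjusted p = 0.0234). Its call was lost without HM-5, HM-13, HM-16 or HC-10 (adjusted p = 0.0649, 0.0501, 0.0858 and 0.0572) with scaling to total reads (0.230) and with quantile normalization (0.0514). The Notch ligand gene Jag2 rose, with 14.6 ± 2.41 FPKM in cKO and 7.5 ± 1.44 FPKM in WT (SD, n = 3 each; limma adjusted p = 0.0123), and lost its call without HM-5 (0.0610) or HM-16 (0.0552). The family's own target genes Gli1, Ptch1 and Hhip did not pass or were not tested, as given above.

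Genes that act on Gli processing changed in small numbers. Of 13 kinases, ligases and scaffolds tested, 2 rose and 1 fell (23.1% against 18%; median log2 fold change 0.10). Prkaca, the catalytic subunit of protein kinase A that marks Gli proteins for processing, averaged 14.1 ± 1.38 FPKM in cKO and 9.74 ± 1.05 FPKM in WT (1.45-fold; SD, n = 3 each; limma adjusted p = 0.0229). Ulk3, a kinase of Gli proteins, rose 1.31-fold (adjusted p = 0.0323), and Cul1, the scaffold of the ligase that binds phosphorylated Gli, fell to 78.6% of WT (adjusted p = 0.0347). Prkaca lost its call without HM-5 (0.0984), HM-16 (0.0775) or HC-1 (0.0560). Ulk3 lost its call in all leave-one-out fits but that without HM-13 (highest adjusted p = 0.130), and Cul1 in all but that without HC-8 (highest 0.132). None of the 3 was past the threshold with scaling to total reads (adjusted p = 0.456 for Prkaca, 0.671 for Ulk3 and 0.370 for Cul1), and Ulk3 was not with quantile normalization (0.0725).

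Among 9 other membrane regulators of reception, 1 rose and 0 fell (11.1% called against 18%). This was Adcy5, an adenylyl cyclase whose product cAMP activates protein kinase A, at 6.26 ± 0.450 FPKM in cKO and 4.38 ± 0.347 FPKM in WT (SD, n = 3 each; limma adjusted p = 0.0310). Its call was lost without HM-5, HM-16, HC-8 or HC-10 (highest adjusted p = 0.110), and with scaling to total reads (0.541). Of the genes for ligands and their release, 2 could be tested and limma and voom called 0 (0 at an unadjusted p under 0.05). Scube3, a secreted factor that helps release ligand, was 1.27 ± 0.147 FPKM in cKO and 0.843 ± 0.320 FPKM in WT (SD, n = 3 each; limma adjusted p = 0.171). Hhat, which attaches the lipid to the ligand, was 0.940 ± 0.191 FPKM in cKO and 0.989 ± 0.301 FPKM in WT (SD, n = 3 each; limma adjusted p = 0.910). Shh, Ihh, Kif7 and Gpr161 are not analysed here.

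Of 23 genes for cilium proteins that Gli processing needs, 2 rose and 1 fell (13% against 18%; median log2 fold change -0.0028). Ift172, a subunit of the transport complex that builds the cilium, averaged 10.8 ± 0.625 FPKM in cKO and 17.1 ± 0.657 FPKM in WT, or 63.4% of WT (SD, n = 3 each; limma adjusted p = 0.00454). It stayed past the threshold in each leave-one-out fit (highest adjusted p = 0.0315) and not with scaling to total reads (0.0840). Arl13b, a small GTPase of the ciliary membrane, rose 1.29-fold (adjusted p = 0.0288), and Tulp3, an adaptor that carries receptors into the cilium, rose 1.24-fold (adjusted p = 0.0405). Arl13b lost its call in all leave-one-out fits but that without HM-13 (highest adjusted p = 0.125). Tulp3 kept its call without HM-13 or HC-8 and lost it in the other 4 (highest 0.149). With scaling to total reads neither passed (adjusted p = 0.687 for Arl13b and 0.749 for Tulp3), nor with quantile normalization (0.0659 for Arl13b and 0.0584 for Tulp3).

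**Figure D4:**
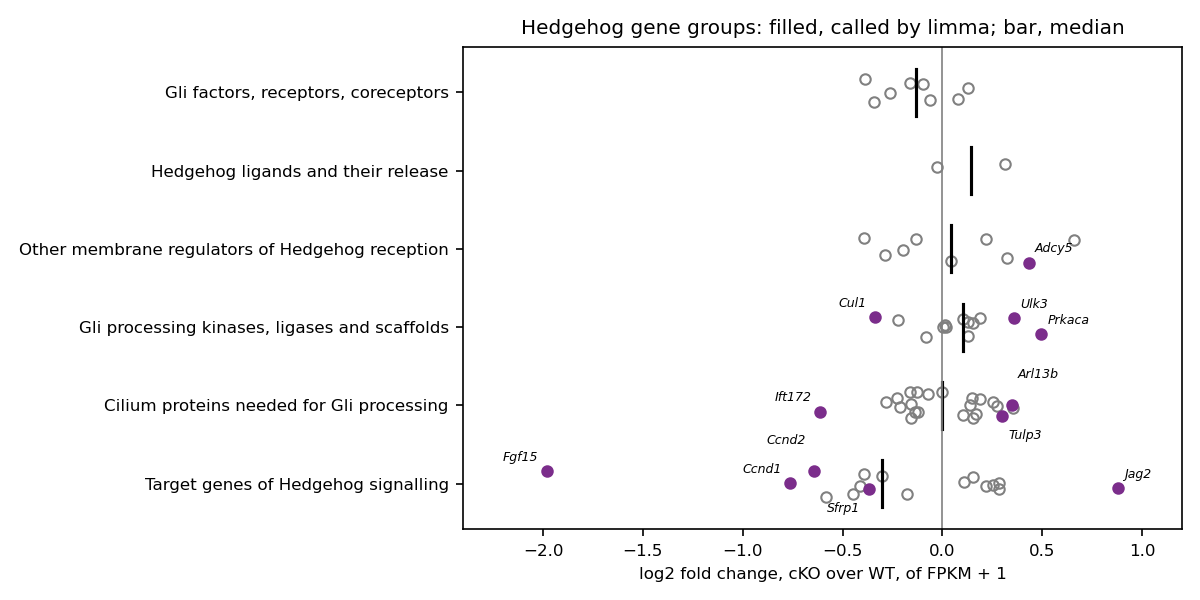
Log2 fold change of cKO over WT (x axis, on FPKM + 1) of each tested gene of the Hedgehog gene groups, 1 row a group; filled points have a limma adjusted p under 0.05 and black bars are medians. The 8 genes of the family itself all lie between -0.39 and 0.13, and Fgf15 lies at -1.98.

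The genes whose values over the 6 libraries ran closest to those of Cdon and Gas1 were found by the root mean square distance between centred log2(FPKM + 1) values, among 4989 genes. Closest to Cdon were Zfp959 (distance 0.08), Masp1 (0.08) and Smyd2 (0.09). The spread of Cdon itself by this measure was 0.27. Smyd2, a lysine methyltransferase, was 16.3, 13.8 and 17.0 FPKM in HM-5, HM-13 and HM-16, against 25.6, 19.6 and 21.3 FPKM in HC-1, HC-8 and HC-10. Smyd2 and Masp1 fell (limma adjusted p = 0.0357 and 0.0490), and Zfp959 did not pass (0.0994). Both lost their calls in all leave-one-out fits but that without HC-8 (highest adjusted p = 0.0973 for Smyd2 and 0.121 for Masp1). Closest to Gas1 were Lhx2 (0.05), Kdelc2 (0.05) and Lfng (0.06), at a spread of Gas1 of 0.20. Lhx2, a transcription factor of cortical progenitors, was 101, 79.5 and 103 FPKM in HM-5, HM-13 and HM-16, against 119, 101 and 99.6 FPKM in HC-1, HC-8 and HC-10 (limma adjusted p = 0.329). The groups of Lhx2 overlapped, unlike those of Gas1. Its lowest value was in HM-13 and its highest in HC-1, as for Gas1, a likeness for which it was picked.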

How the data were processed

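RNA from cortex was sequenced in 3 cKO and 3 WT libraries. Per the submitters' processing notes, the tools were bcl2fastq 1.8.4, DESeq2 1.22.1, R 3.4.1, featureCounts 1.6.1 and STAR 2.5.4b, on build mm10. Per the file headers, the table of 14379 rows holds FPKM by library, and the deposited table also holds the authors' mean normalized count (a scaled read signal), p-value, FDR and log2 fold change. The authors' FPKM carry size factors of 0.804 to 1.19. Dividing them out gave whole reads for 100% of values (within 0.001 of a read). The highest-count row stood for a symbol. Symbols with at least 1 FPKM in at least 3 libraries entered limma 3.58.1 on log2(FPKM + 1) (intensity trend, group only, R 4.3.3), two-sided, Benjamini-Hochberg threshold 0.05. Fold changes are cKO over WT. "Rose" and "fell" refer to genes past that threshold. The design had named this test for FPKM. The pseudocount understates changes of low genes. On data simulated for this comparison over 9194 genes, 92.3% of 2-fold changes were recovered. Every simulated gene had the same dispersion, a measure of spread between libraries, of 0.00417, a median over genes in WT. The share thus does not cover genes of wider spread or changes below 2-fold. Genes and lists were chosen with earlier results of these data known. In other pathway lists up to 4 called genes with the smallest p are named (else 2), in marker lists the most abundant and the called genes, and beside Cdon and Gas1 the 3 genes with the closest values. Some named genes are not reported here. Positions are from GENCODE M21 (GRCm38).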

Additional observations from a re-analysis of the deposited data

How the results depend on the processing

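No paired analysis was possible because the columns carry no replicate numbers. The number of Hedgehog genes called was 0 in the fit reported and in all 15 alternatives. Over all genes, 1685 were called, 497 with scaling to total reads and 511 to 1773 with 1 library left out. Of the other pathway genes, 12 were called, 5 with scaling to total reads and 3 to 11 with 1 library left out. With scaling to total reads the SEs hardly followed the spread of each gene, as given above for Smo, Dlx2 and Ttr. Gli2, at 0.08, changed sign with scaling to total reads (-0.012) and without HM-16. With 1 library left out it ran from -0.018 to 0.18, and Gli3, at -0.062, from -0.11 to 0.038 (without HM-13). None of these was past the threshold. Among other named genes without a call, the sign changed with 1 library left out for Hhat (-0.15 to 0.035), Wnt8b (-0.21 to 0.75), Ttr (-1.39 to 2.15) and Lum (-0.20 to 0.17). Over the other named genes and the list counts, 558 alternative values kept direction and call or nearly the same count, 101 lost a call or fell further in count, and 21 gained. Small shifts of a list count, such as 3 to 2 for the Gli processing list with quantile normalization, are among the 558. The cause was not tested. Gli1, Boc, Sufu and Hhip rest on under 90 reads a library, which limits them. With 3 libraries a group, the intervals of Gli1 and Boc are the widest of the 8.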
